A study of Homo sapiens with 3 samples.

Results

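The 31 genes described here encode the enzymes and regulators with which a cell makes cholesterol and fatty acids. They were chosen by name and matched through their Ensembl IDs, and all 31 were found among the 23379 genes of the deposited FPKM values (reads scaled to gene length and to the library's total). DU145 is an established human line from a prostate carcinoma. There was 1 library in each of 3 groups, namely L597R, which received a plasmid for the BRAF mutant so named, WT, overexpressing wild-type BRAF, and P-Enter, the negative control. The labels give no promoter, clone, pool, time after transfection or further description of the control construct. BRAF is a kinase that lies between RAS and the MEK and ERK kinases.

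Sterol synthesis is set by a feedback loop in the membrane of the endoplasmic reticulum. The transcription factors SREBF1 and SREBF2 are made as membrane-bound precursors and are escorted to the Golgi by SCAP for cleavage when sterols are scarce. When sterols are plentiful, INSIG1 and INSIG2 hold SCAP back. SREBF2 acts mainly on the genes of cholesterol synthesis and SREBF1 mainly on those of fatty acid synthesis, and prostate carcinomas are known for active fatty acid synthesis. RNA levels do not show cleavage of the precursors, enzyme activity or lipid content.

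Promoters are shown for 4 genes: STARD4 and MSMO1, which lay higher in L597R than in P-Enter, and the regulators SREBF1 and SREBF2, which lay lower. A link between the elements and the direction of a difference was not tested. Each line holds the 250 bases before the RefSeq start of the gene on GRCh38.p14, read 5′ to 3′ along the gene. Capitals mark the letters CCAAT (the NF-Y box), GGGCGG (the GC box bound by SP1), CACGTG (the E-box) and TCACNCCAC (a form of the sterol regulatory element), on either strand. The stretches are chr5:111512536-111512785 (minus strand) for STARD4, chr4:165327419-165327668 (plus) for MSMO1, chr22:41832855-41833104 (plus) for SREBF2 and chr17:17836987-17837236 (minus) for SREBF1.
STARD4: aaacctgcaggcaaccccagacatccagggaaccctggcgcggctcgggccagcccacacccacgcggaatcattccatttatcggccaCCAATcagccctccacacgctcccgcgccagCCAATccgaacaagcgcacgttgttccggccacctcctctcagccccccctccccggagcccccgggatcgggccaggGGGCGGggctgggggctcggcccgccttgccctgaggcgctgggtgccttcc
MSMO1: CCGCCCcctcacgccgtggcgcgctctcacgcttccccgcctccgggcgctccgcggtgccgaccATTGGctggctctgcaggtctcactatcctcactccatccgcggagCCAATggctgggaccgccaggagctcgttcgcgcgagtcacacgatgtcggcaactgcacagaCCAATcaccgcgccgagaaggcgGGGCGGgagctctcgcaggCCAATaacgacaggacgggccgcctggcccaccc
SREBF2: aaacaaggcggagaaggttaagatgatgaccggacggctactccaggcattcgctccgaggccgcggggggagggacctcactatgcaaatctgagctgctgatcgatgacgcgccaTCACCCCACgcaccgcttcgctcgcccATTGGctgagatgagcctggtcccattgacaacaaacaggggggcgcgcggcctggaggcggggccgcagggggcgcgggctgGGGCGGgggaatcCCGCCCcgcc
SREBF1: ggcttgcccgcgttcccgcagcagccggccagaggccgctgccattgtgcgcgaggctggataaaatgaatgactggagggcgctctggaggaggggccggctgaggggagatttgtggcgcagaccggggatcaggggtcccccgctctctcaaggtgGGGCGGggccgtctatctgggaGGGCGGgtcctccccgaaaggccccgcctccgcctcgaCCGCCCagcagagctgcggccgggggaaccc
The MSMO1 stretch held 4 NF-Y boxes and the STARD4 stretch 2, at 161 to 157 and 130 to 126 bases before the start. SREBF2 had the sterol element at 133 to 125 bases before its start and 1 NF-Y box at 106 to 102. SREBF1 had 3 GC boxes and none of the other elements. GC boxes were also present in the other stretches, 1 in STARD4, 2 in MSMO1 and 2 in SREBF2.

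Promoters of 27 of the 31 genes were matched, each from 250 bases before to 50 bases after the start, and a gene with several listed starts counted once. FDFT1, SQLE, FASN and ACAT2 had no entry. The NF-Y box was present in 20 of the 27 (74.1%), against 44.1% of 7805 protein-coding genes with a mean of at least 1 FPKM here and 34.6% of all 35116 listed promoters. A GC box was present in 26 (96.3%), against 79.6% of the expressed genes and 44.95% of all promoters. The E-box was found in 4 genes (14.8%, against 13.2% and 7.26%) and the sterol element in SREBF2 alone (3.70%, against 1.41% and 1.13%). A match of letters is a description and not a site of binding, and an absent one says only that these letters are not in this window.

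The values rested on 16603676 counted reads in L597R, 15665132 in WT and 13294004 in P-Enter, worked out from the FPKM values. With 1 library per group no difference has a replicate check or a p-value. Each ratio below is a ratio of reads per library total with an exact 95% interval, which covers counting error only and compares libraries, not conditions. BRAF was at 9.59 FPKM in L597R, 4.41 in WT and 1.65 in P-Enter. Of 8 epithelial markers 7 were listed and 3 had a mean of at least 1 FPKM (KRT18, KRT7 and OCLN), with a summed level of 66.3 FPKM in L597R, 66.4 in WT and 66.0 in P-Enter. The cadherin CDH1 had 0 reads in L597R, 0 in WT and 1 in P-Enter, so this epithelial marker was near absent and the cell line is named here from its label alone. The mesenchymal markers summed to 140 FPKM in L597R, 136 in WT and 139 in P-Enter, nearly all from VIM, while immune and endothelial markers stayed below 1 FPKM in all 3. In bulk libraries fewer cells of a type and less RNA per cell cannot be told apart.

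Together the 31 genes took 0.468% of the reads in L597R, 0.485% in WT and 0.490% in P-Enter. Fatty acid synthesis and desaturation made up the most of this, with 0.260% in L597R, 0.274% in WT and 0.277% in P-Enter from 7 genes. In FPKM, which corrects for gene length, the levels in P-Enter ran from 2.08 for INSIG2 to 122 for SCD, with a median of 13.8. Among 9358 protein-coding genes with a mean of at least 1 FPKM, SCD stood at percentile 97.1 of the P-Enter levels, ACLY at 96.3, FASN at 95.4 and INSIG2 at 12.6. SCD, ACLY and FASN thus stood close to the top of all levels, while ACACA, the carboxylase between ACLY and FASN, stood at percentile 37.1.

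**Figure D1:**
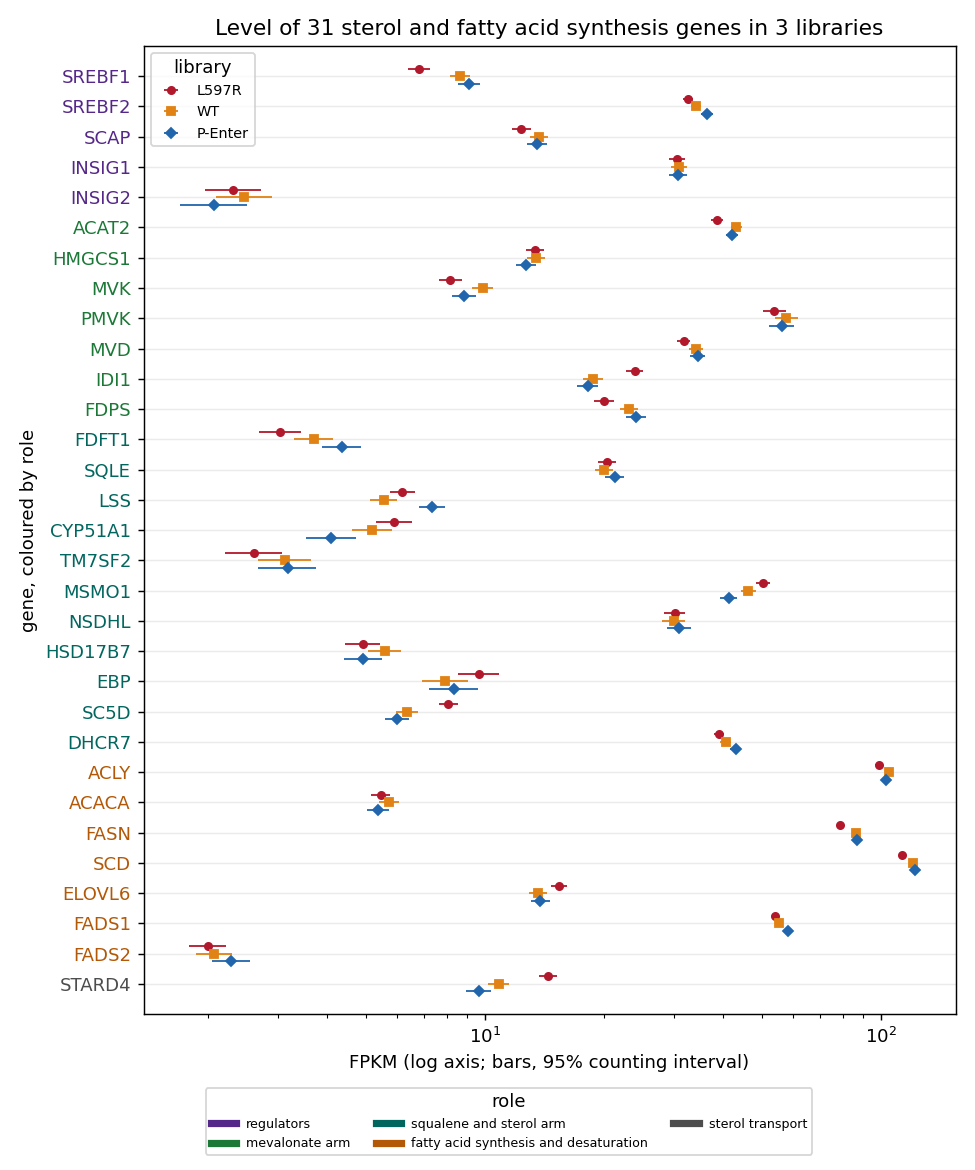
FPKM of each of the 31 genes on a log axis in the L597R (circles), WT (squares) and P-Enter (diamonds) libraries, ordered by role, with exact 95% counting intervals as bars. SCD, ACLY and FASN lie highest, near 100 FPKM, and the separation between libraries is small beside the separation between genes.

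In L597R against P-Enter no gene differed 2-fold, and 6 differed by a smaller amount. The carrier STARD4 and the enzymes CYP51A1, SC5D and IDI1 lay at least 25% higher in FPKM + 1, and the squalene synthase FDFT1 and the regulator SREBF1 at least 20% lower. None of the 31 differed by 1 or more in log2(FPKM + 1), where 0.808% of all genes and 0.118% of protein-coding genes did. By the smaller rule of 25% higher or 20% lower (the 25% rule), 4 genes were higher (12.9%, against 11.8% of all genes and 11.1% of protein-coding genes) and 2 lower (6.45%, against 5.18% and 3.25%). Both shares are close to those of all genes. In GENCODE 29 on GRCh38 the genes past the 25% rule in at least 1 comparison, FDFT1 aside, are SREBF1 on chromosome 17 from 17810399 to 17837002 (minus strand), IDI1 on chromosome 10 from 1039152 to 1049170 (minus strand), LSS on chromosome 21 from 46188141 to 46228824 (minus strand), CYP51A1 on chromosome 7 from 92112151 to 92134803 (minus strand), SC5D on chromosome 11 from 121292453 to 121308694 (plus strand) and STARD4 on chromosome 5 from 111496033 to 111512590 (minus strand). Over the 31 genes, 10 were higher (32.3%, against 48.5% of all genes and 48.7% of protein-coding genes) and 21 lower, with a median log2 difference of -0.06, against -0.01 over protein-coding genes.

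The interval of the read ratio lay above 1 for 6 of the 31 genes (19.4%, against 25.5% of all genes and 28% of protein-coding genes) and below 1 for 13 (41.9%, against 23.9% and 25.7%). The 31 genes were counted more deeply than most, with a median of 3768 reads over the 3 libraries, against 2115.5 over protein-coding genes. More reads narrow an interval, whichever way a gene differs. Their GC content was also higher, with a median of 51.6% against 48.2%. Whether depth or GC content bears on the shares above and below 1 was not tested.

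GC content of the transcripts moved with the differences, in these genes as in all others. Across the 31 genes the Spearman correlation of the log2 difference with GC content was -0.73, and across 9358 protein-coding genes it was -0.70; genes of 1 pair of libraries are not independent, so these are descriptions. All 11 genes with 55% GC or more were lower in L597R (median -0.13, the same as the -0.13 over protein-coding genes of that content). Of protein-coding genes of that content 14.9% were higher. Of the 10 genes under 45% GC, 8 were higher (median 0.22, against 0.21). What produced this trend was not tested, and each difference is therefore also given after a regression on GC content, gene length and level fitted to all protein-coding genes. The median over the 31 genes was 0.0012 after the regression, with 16 above 0 and 15 below, where 49.5% of protein-coding genes were above.

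**Figure D2:**
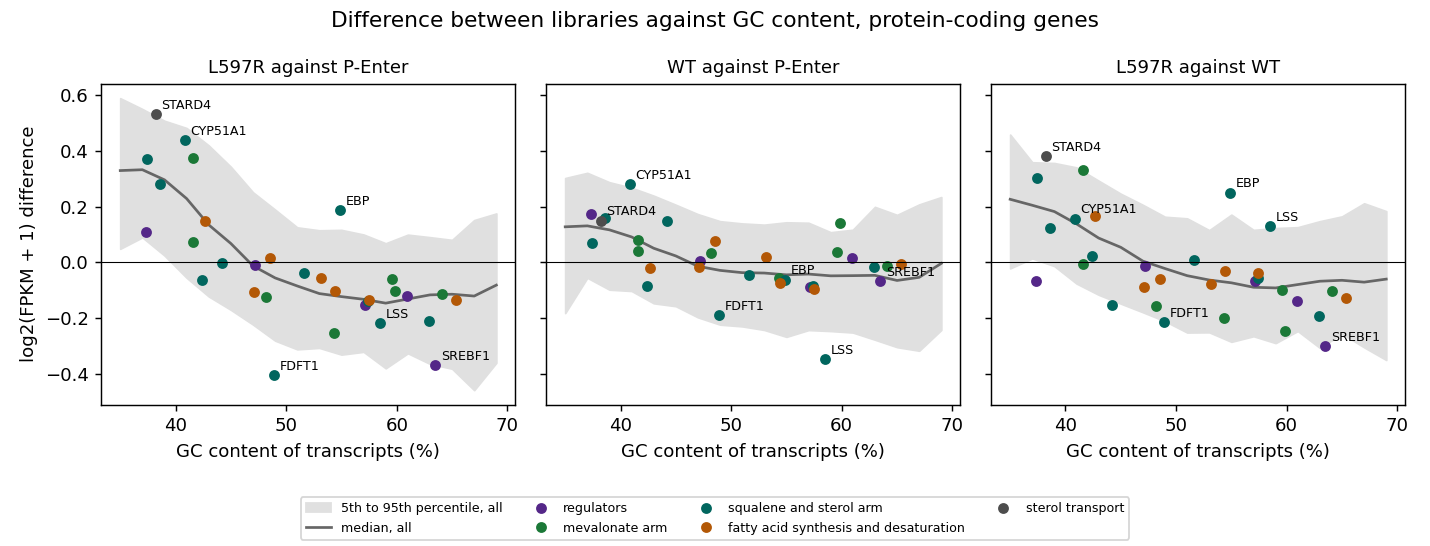
Difference in log2(FPKM + 1) against the GC content of a gene's transcripts (percent) for the 31 genes (points, coloured by role) in each comparison, over the median (line) and the 5th to 95th percentile (band) of protein-coding genes in bins of GC content. In L597R against P-Enter the points follow the line downwards from left to right, FDFT1 lies below the band, EBP above it, and STARD4 and SREBF1 at its edge.

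Among the regulators, the L597R library had less SREBF1 and slightly less SREBF2 and SCAP. SREBF1 was at 6.83 FPKM in L597R, 8.64 in WT and 9.11 in P-Enter, from 934 reads in L597R, 1115 in WT and 997 in P-Enter. Its ratio in L597R against P-Enter was 0.750 (0.685 to 0.821), and the log2 difference was -0.37 before and -0.25 after the regression, at percentile 4.16 of protein-coding genes. L597R was the low library for SREBF1, while WT and P-Enter lay close together (0.949, 0.871 to 1.03). SREBF2 was at 32.6 FPKM in L597R, 34.1 in WT and 36.4 in P-Enter, with a ratio of 0.896 (0.856 to 0.937) in L597R against P-Enter. After the regression its log2 difference was -0.02, so it lay where genes of its GC content lay.

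The escort SCAP was at 12.4 FPKM in L597R, 13.7 in WT and 13.5 in P-Enter, and its log2 difference in L597R against P-Enter was -0.12 before the regression and turned to 0.02 after it. INSIG1, itself a target of SREBF2 and the more abundant retention protein at RNA level per length, was at 30.5 FPKM in L597R, 30.8 in WT and 30.7 in P-Enter. INSIG2 was at 2.32 FPKM in L597R, 2.47 in WT and 2.08 in P-Enter. INSIG1 thus stood level in all 3 libraries, with a ratio of 0.995 (0.929 to 1.066) in L597R against P-Enter. The INSIG2 interval of 0.867 to 1.44 leaves room for a difference in either direction. Its log2 difference in L597R against P-Enter was 0.11 before and -0.21 after the regression (percentile 6.48). In L597R against WT it was -0.07 before and -0.28 after the regression (percentile 1.89).

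In the mevalonate arm, which builds the isoprenoid units, IDI1 stood apart from its neighbours. IDI1, the isomerase that interconverts the activated isoprene units, was at 23.9 FPKM in L597R, 18.7 in WT and 18.2 in P-Enter. Its ratio was 1.31 (1.215 to 1.42) in L597R against P-Enter and 1.27 (1.18 to 1.37) against WT, and the log2 difference against P-Enter was 0.37 before and 0.19 after the regression. FDPS, which joins these units to farnesyl diphosphate in the next step, lay the other way, at 19.99 FPKM in L597R, 23.1 in WT and 24.0 in P-Enter. The FDPS ratio in L597R against P-Enter was 0.832, with an interval of 0.767 to 0.901. After the regression FDPS was at -0.14. Adjacent enzymes of the pathway therefore differed in opposite directions.

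The other genes of the arm are its earlier steps. ACAT2, the cytosolic thiolase, was at 38.6 FPKM in L597R, 43.1 in WT and 42.1 in P-Enter, and HMGCS1, which makes HMG-CoA, at 13.4 FPKM in L597R, 13.5 in WT and 12.7 in P-Enter. The mevalonate kinase MVK was at 8.18 FPKM in L597R, 9.88 in WT and 8.86 in P-Enter. PMVK, the kinase after it, was at 53.8 FPKM in L597R, 57.7 in WT and 56.2 in P-Enter. The decarboxylase MVD was at 31.7 FPKM in L597R, 34.1 in WT and 34.4 in P-Enter. Of these 5 genes the interval in L597R against P-Enter lay below 1 for ACAT2 and MVD and included 1 for the other three. ACAT2 overlaps TCP1 on the opposite strand, which was at 92.4 FPKM in L597R, 86.2 in WT and 83.0 in P-Enter.

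The squalene and sterol arm held the widest spread. FDFT1, the squalene synthase that commits farnesyl diphosphate to sterols, was the lowest of the 31 genes in L597R relative to P-Enter. It was at 3.05 FPKM in L597R, 3.70 in WT and 4.36 in P-Enter, from 263 reads in L597R, 301 in WT and 301 in P-Enter, with a ratio of 0.700 (0.591 to 0.828) in L597R against P-Enter. Its GC content of 48.9% lies near the middle of all genes, and its log2 difference was -0.40 before and -0.37 after the regression, at percentile 1.27. It was the 1 gene of the 31 still past the 25% rule after the regression, where 1.96% of protein-coding genes were that low and 2.37% that high.

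CYP51A1, the demethylase that acts on lanosterol, was the enzyme furthest above P-Enter. It was at 5.90 FPKM in L597R, 5.19 in WT and 4.09 in P-Enter, from 346 reads in L597R, 287 in WT and 192 in P-Enter. Its ratio was 1.44 (1.206 to 1.73) in L597R and 1.27 (1.05 to 1.53) in WT, both against the same P-Enter library, and the log2 difference in L597R was 0.44 before and 0.24 after the regression. SC5D, a desaturase of the sterol ring system, was at 8.09 FPKM in L597R, 6.36 in WT and 6.02 in P-Enter. Its ratio of 1.34 (1.23 to 1.47) in L597R against P-Enter went with a GC content of 37.4%, and its log2 difference of 0.37 was 0.03 after the regression. MSMO1, a monooxygenase of sterol demethylation, was at 50.4 FPKM in L597R, 46.2 in WT and 41.3 in P-Enter. The MSMO1 interval in L597R against P-Enter ran from 1.15 to 1.303, and its log2 difference of 0.28 was 0.0012 after the regression. SC5D and MSMO1 thus lay where genes of like GC content lay. CYP51A1 lay above most genes of its content, at percentile 94.3 after the regression. In WT against P-Enter it was at 0.22 after the regression (percentile 96.4), and both values use the same P-Enter library. In L597R against WT it was at 0.02 after the regression (ratio 1.14, 0.970 to 1.33).

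EBP, the sterol isomerase, lay higher relative to genes of its GC content than in the deposited values. It was at 9.64 FPKM in L597R, 7.94 in WT and 8.34 in P-Enter, from 283 reads in L597R, 220 in WT and 196 in P-Enter. Its ratio in L597R against P-Enter was 1.16, with an interval of 0.960 to 1.39 that includes 1. At 54.9% GC it lay above genes of like content, with a log2 difference of 0.19 before and 0.31 after the regression (percentile 97.4).

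LSS, which closes squalene epoxide into lanosterol, was lower in both BRAF libraries than in P-Enter. It was at 6.18 FPKM in L597R, 5.57 in WT and 7.36 in P-Enter. Its ratio was 0.840 (0.757 to 0.933) in L597R and 0.756 (0.678 to 0.843) in WT, both against the same P-Enter library. SQLE, the oxygen-dependent step before it, was at 20.3 FPKM in L597R, 19.97 in WT and 21.2 in P-Enter. DHCR7, the reductase of the last step, was at 38.9 FPKM in L597R, 40.5 in WT and 43.0 in P-Enter. The P-Enter library was thus the highest for all 3 of these genes, and the SQLE interval in L597R against P-Enter (0.885 to 1.03) included 1. In that comparison the LSS log2 difference was -0.22 before and -0.08 after the regression, and that of DHCR7 -0.14 and 0.00658. SQLE moved the other way, from -0.06 before to -0.22 after the regression (percentile 6.30).

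The other genes of the arm did not separate the L597R and P-Enter libraries beyond counting error. TM7SF2, a sterol reductase, was at 2.62 FPKM in L597R, 3.13 in WT and 3.18 in P-Enter. NSDHL, the dehydrogenase of the demethylation complex, was at 30.1 FPKM in L597R, 29.9 in WT and 30.9 in P-Enter. HSD17B7, the keto-reductase of that complex, was at 4.92 FPKM in L597R, 5.59 in WT and 4.94 in P-Enter. All 3 intervals in L597R against P-Enter included 1. After the regression HSD17B7 was at -0.10 in L597R against P-Enter and at -0.22 in L597R against WT (percentile 3.80). HSD17B7 has closely related pseudogene copies, so its reads may have been split in counting, and TM7SF2 overlaps VPS51 on the same strand (14.6 FPKM in L597R, 16.8 in WT and 17.6 in P-Enter).

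STARD4, a soluble carrier that moves cholesterol between membranes, had the highest ratio of the 31 genes in L597R against P-Enter and in L597R against WT. It was at 14.4 FPKM in L597R, 10.8 in WT and 9.66 in P-Enter, from 1360 reads in L597R, 964 in WT and 730 in P-Enter. The ratio was 1.49 (1.36 to 1.63) in L597R against P-Enter and 1.33 (1.22 to 1.45) against WT. Its GC content was 38.2%, and the log2 difference against P-Enter was 0.53 before the regression, at percentile 98.9, and 0.22 after it, at percentile 93.1. The 3 libraries were ordered L597R, WT and P-Enter from high to low, and its antisense neighbour STARD4-AS1 stayed at or below 0.0893 FPKM. The STARD4 ratio in WT against P-Enter was 1.12 (1.02 to 1.24), and the log2 difference was 0.15 before and 0.03 after the regression. With the smallest number of reads that is also whole, that interval was 0.976 to 1.29 and included 1.

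Fatty acid synthesis genes differed little between libraries, at high counts. ACLY, which makes cytosolic acetyl-CoA from citrate, was at 98.8 FPKM in L597R, 104 in WT and 103 in P-Enter. FASN, the fatty acid synthase, was at 78.8 FPKM in L597R, 86.3 in WT and 86.7 in P-Enter. SCD, the desaturase that introduces the first double bond, was at 113 FPKM in L597R, 120 in WT and 122 in P-Enter. All 3 were slightly lower in L597R than in P-Enter, with ratios of 0.961 (0.931 to 0.992) for ACLY, 0.910 (0.886 to 0.934) for FASN and 0.929 (0.903 to 0.957) for SCD. After the regression they stood at 0.06, -0.02 and -0.10 on the log2 scale.

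ACACA, the carboxylase that makes malonyl-CoA, was at 5.45 FPKM in L597R, 5.73 in WT and 5.38 in P-Enter. ELOVL6, the elongase of saturated chains, was at 15.4 FPKM in L597R, 13.6 in WT and 13.8 in P-Enter, and its ratio of 1.12 (1.04 to 1.1999) made it the 1 gene of this group with an interval above 1 in L597R against P-Enter. After the regression the ELOVL6 difference turned, from 0.15 before it to -0.00405. FADS1, a desaturase of polyunsaturated fatty acids, was at 54.1 FPKM in L597R, 55.2 in WT and 58.1 in P-Enter. Its partner FADS2 was at 1.998 FPKM in L597R, 2.07 in WT and 2.29 in P-Enter. The neighbours FADS1 and FADS2 on chromosome 11 were therefore both lowest in L597R. Their ratios against P-Enter were 0.930 (0.903 to 0.959) for FADS1 and 0.873 (0.748 to 1.02) for FADS2. After the regression these log2 differences were 0.00687 and 0.01, so both lay where like genes lay. In L597R against WT they were 0.055 and 0.062 after the regression. The annotations of FADS1 and FADS2 overlap on opposite strands, and that of FADS2 overlaps FEN1 on its own strand (118 FPKM in L597R, 128 in WT and 137 in P-Enter), so the low FADS2 value could hold reads of either.

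**Figure D3:**
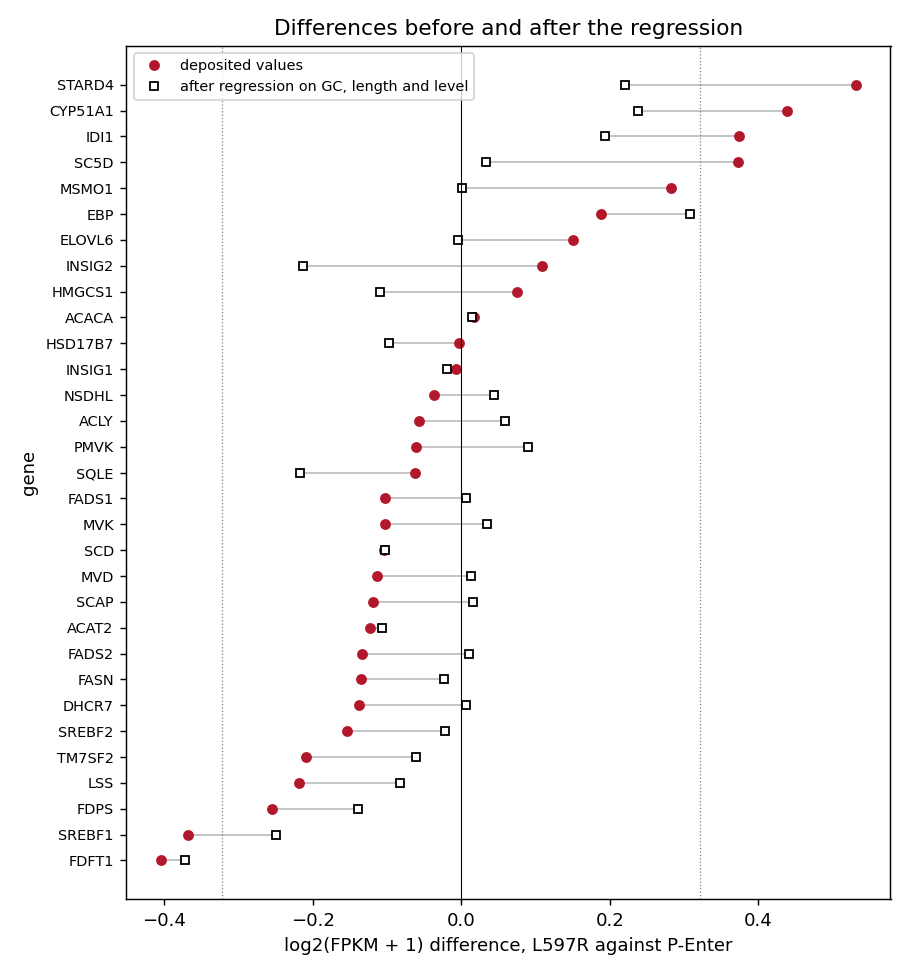
Difference in log2(FPKM + 1) of L597R against P-Enter for each of the 31 genes, from the deposited values (filled circles) and after the regression on GC content, length and level (open squares), with dotted lines at the 25% rule. STARD4, CYP51A1 and IDI1 stay to the right of 0 after the regression, SC5D and MSMO1 move to near 0, and FDFT1 alone stays beyond a dotted line.

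In WT against P-Enter the 31 genes lay closer together. LSS was the 1 gene past the 25% rule, at 5.57 FPKM in WT against 7.36 in P-Enter, with a log2 difference of -0.35 before and -0.30 after the regression (percentile 1.43). None of the 31 was past 2-fold, where 0.978% of all genes and 0.118% of protein-coding genes were. By the 25% rule 0 were higher, against 2.95% of all genes and 1.29% of protein-coding genes, and 1 was lower (3.23%, against 3.58% and 1.58%). Over the 31 genes 15 were higher (48.4%, against 49.7% of all genes and 50.1% of protein-coding genes). The interval lay above 1 for 4 genes (12.9%, against 14% of all genes and 15.3% of protein-coding genes) and below 1 for 5 (16.1%, against 12.1% and 12.6%), which is close to the background in both directions. Those above were MVK, CYP51A1, MSMO1 and STARD4, and those below were SREBF2, FDFT1, LSS, DHCR7 and FADS1. With the fewest reads that are also whole, the STARD4 interval was 0.976 to 1.29 and included 1. The median log2 difference was -0.01, against 0.00033 over protein-coding genes, and 0.01 after the regression, with 18 of 31 above 0 (50.6% of protein-coding genes were). After the regression 0 were past the 25% rule, where 1.1% of protein-coding genes were higher and 1.21% lower.

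MVK was the 1 gene of the mevalonate arm with an interval above 1 in WT (ratio 1.12, 1.01 to 1.23), and its log2 difference of 0.14 was 0.19 after the regression. FDFT1 was at 0.849 in WT against P-Enter (0.721 to 0.999), barely short of 1. The Spearman correlation with GC content was -0.51 across the 31 genes and -0.46 across protein-coding genes, a shallower trend than in L597R.

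In L597R against WT, where BRAF itself was 2.18-fold higher (2.05 to 2.31), 10 of the 31 genes were higher (32.3%, against 52.2% of all genes and 52.4% of protein-coding genes) and 21 lower. None was past 2-fold, where 0.724% of all genes and 0.0748% of protein-coding genes were. By the 25% rule 2 were higher, IDI1 and STARD4 (6.45%, against 4.93% of all genes and 3.33% of protein-coding genes), and 0 lower (3.16% and 1.57% were). The interval lay above 1 for 6 genes (19.4%, against 22.1% of all genes and 24% of protein-coding genes) and below 1 for 11 (35.5%, against 16.3% and 17.5%). Here too the 31 genes are more deeply counted and richer in GC than most, and a bearing of either on these shares was not tested. The Spearman correlation of the difference with GC content was -0.58 across the 31 genes and -0.60 across protein-coding genes. All 5 regulators were lower in L597R than in WT, led by SREBF1 with a ratio of 0.790 (0.724 to 0.863), while the INSIG1 and INSIG2 intervals included 1. After the regression SREBF2 turned to 0.03 on the log2 scale, and SCAP (-0.05) and INSIG1 (-0.03) lay close to like genes. SREBF1 was at -0.22 and INSIG2 at -0.28. In the deposited values of the mevalonate arm 6 of 7 were lower, with MVK at 0.828 (0.755 to 0.907), and IDI1 was the exception. In the squalene and sterol arm 7 of 11 were higher, among them EBP (1.214, 1.01 to 1.45) and SC5D (1.27, 1.17 to 1.38).

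The median log2 difference in L597R against WT was -0.06, against 0.01 over protein-coding genes, and -0.03 after the regression, with 12 of 31 above 0 (50% of protein-coding genes were). After the regression 0 were past the 25% rule, where 1.35% of protein-coding genes were higher and 1.26% lower. For the mevalonate arm alone the median was -0.10 before and -0.13 after the regression, with 1 of 7 above 0. IDI1, at 0.21 after the regression, was that 1 gene. The squalene and sterol arm was at 0.02 after the regression, with 6 of 11 above 0. Fatty acid synthesis and desaturation was at -0.01 (3 of 7) and the regulators at -0.05 (1 of 5). In L597R against P-Enter the mevalonate arm was at 0.01 after the regression, with 4 of 7 above 0. The L597R library also held more BRAF RNA than the WT library, and with 1 library of each kind an effect of the substitution cannot be told apart from one of dose.

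**Figure D4:**
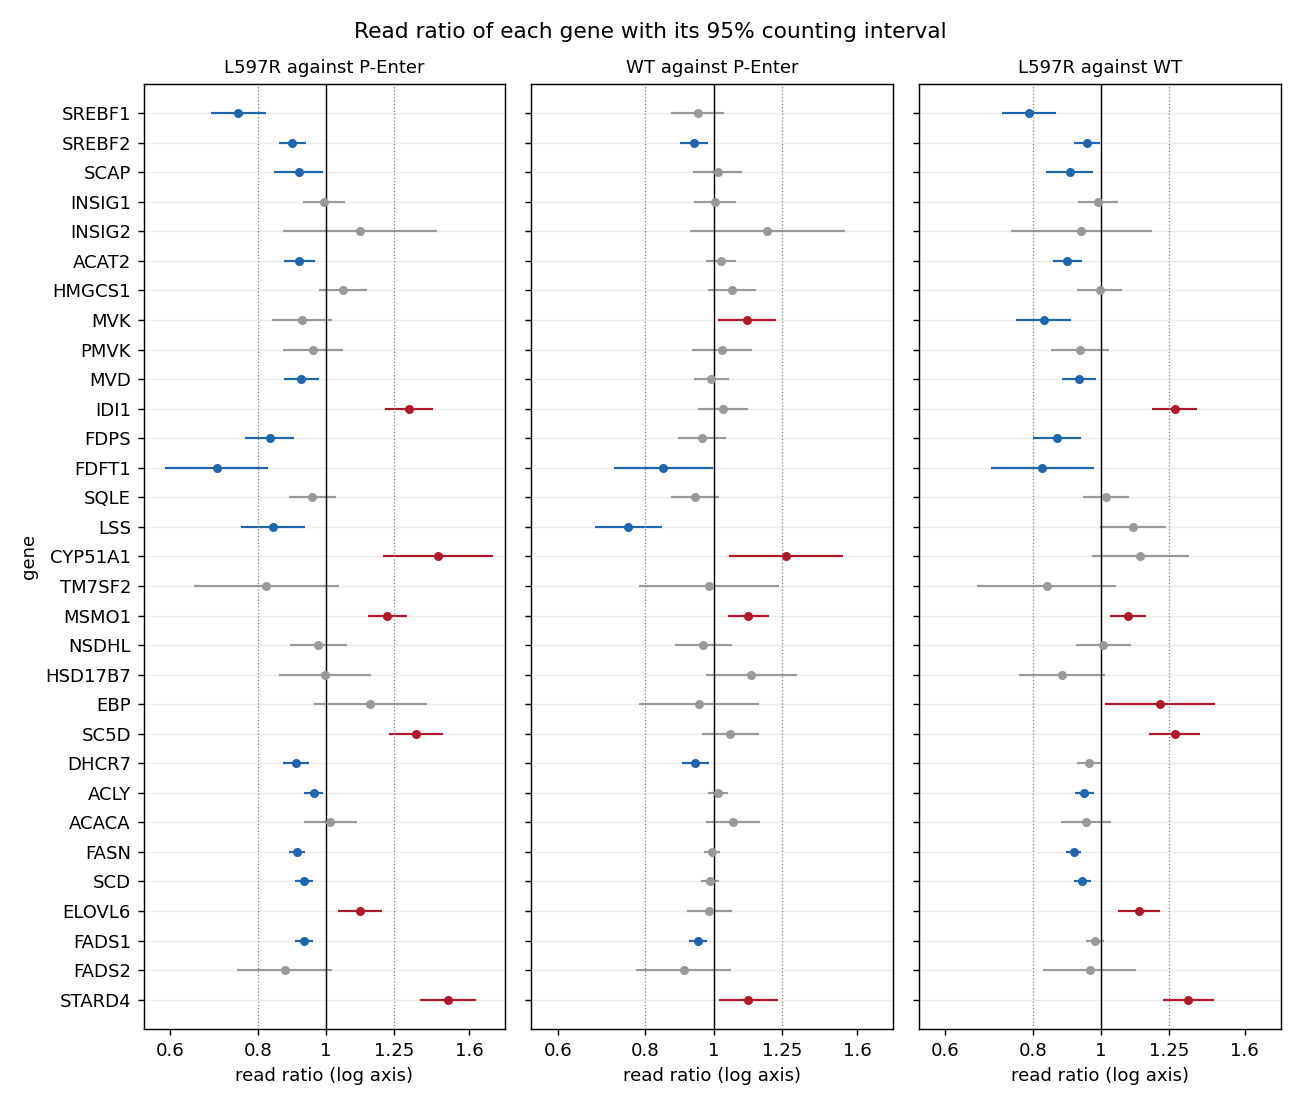
Read ratio of each of the 31 genes (log axis) with its exact 95% counting interval, in L597R against P-Enter, WT against P-Enter and L597R against WT. Red intervals lie above 1 and blue ones below 1, grey ones include 1, and dotted lines mark reads 25% higher and 20% lower; STARD4 and CYP51A1 lie furthest right and FDFT1 and SREBF1 furthest left in the first panel.

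Other genes of sterol and lipid handling are read against the same shares of all genes past the 25% rule in L597R against P-Enter, 11.8% higher and 5.18% lower. By any amount, 48.5% of all genes were higher in L597R than in P-Enter. In the list for sterol sensing, uptake, storage and export, 15 of 18 genes had a mean of at least 1 FPKM, with 5 higher and 10 lower in L597R than in P-Enter (median log2 difference -0.06), of which 0 higher and 1 lower were past the rule. SOAT1, which esterifies cholesterol for storage, was at 27.4 FPKM in L597R against 22.1 in P-Enter (ratio 1.24, 1.17 to 1.31), and 0.05 on the log2 scale after the regression. RNF139, a ubiquitin ligase of the endoplasmic reticulum, was at 8.77 FPKM in L597R against 7.45 in P-Enter, and in WT, at 9.59 FPKM, it was past the 25% rule (1.29, 1.12 to 1.49). The oxysterol binder OSBP was at 17.0 FPKM in L597R against 18.2 in P-Enter. The 1 gene of this list past the 25% rule in L597R against P-Enter was NR1H3, a sterol-sensing nuclear receptor, at 1.94 FPKM in L597R against 2.95 in P-Enter (0.657, 0.524 to 0.822), named after its value was seen.

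The isoprenoid branch had 11 of 12 genes measured, 6 higher and 5 lower in L597R than in P-Enter, with a median of 0.10 before and -0.02 after the regression. By the 25% rule 2 were higher and 1 lower. The pair of subunits of 1 prenyltransferase lay on opposite sides, RABGGTB at 28.9 FPKM in L597R against 22.8 in P-Enter (1.26, 1.19 to 1.34; 38.4% GC) and RABGGTA at 6.05 FPKM in L597R against 7.84 in P-Enter (0.771, 0.663 to 0.897; 60.0% GC). Their log2 differences after the regression were 0.02 and -0.18. LBR, a sterol reductase of the nuclear envelope, was at 27.1 FPKM in L597R against 22.7 in P-Enter. It was listed and counted here, although a sterol reductase is not an enzyme of the isoprenoid branch. DHDDS, which makes dolichol precursors, was at 10.3 FPKM in L597R against 11.2 in P-Enter. GGPS1, which makes geranylgeranyl diphosphate and is named after its value was seen, was at 1.55 FPKM in L597R, 1.54 in WT and 0.968 in P-Enter, with ratios to P-Enter of 1.601 (1.13 to 2.30) in L597R and 1.59 (1.11 to 2.30) in WT.

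Of 23 further genes of fatty acid and lipid synthesis 20 were measured, with 9 higher and 11 lower in L597R than in P-Enter and a median of -0.07 before and 0.02 after the regression. By the 25% rule 3 were higher and 1 lower. The elongase ELOVL7 was at 7.22 FPKM in L597R against 4.91 in P-Enter (1.47, 1.27 to 1.70) and ACSL4, which activates polyunsaturated fatty acids, at 11.8 FPKM in L597R against 8.37 in P-Enter (1.41, 1.31 to 1.51). SCD5, the second human stearoyl-CoA desaturase, was at 8.30 FPKM in L597R against 10.9 in P-Enter (0.761, 0.679 to 0.854). ELOVL7 and ACSL4 have 38.4% and 39.01% GC and stood at 0.18 and 0.16 after the regression, while SCD5 with 48.7% GC kept -0.34 of its -0.36. The acyltransferase AGPAT2 was at 17.1 FPKM in L597R against 20.7 in P-Enter. Against WT, at 21.8 FPKM, AGPAT2 in L597R was past the 25% rule (0.782, 0.695 to 0.880) and at -0.28 after the regression. HSD17B12, an enzyme of chain elongation named after its value was seen, was past the 25% rule in L597R against P-Enter (1.31, 1.18 to 1.45).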

How the data were processed

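RNA was sequenced from 1 library each of L597R, WT and P-Enter, made with a stranded mRNA kit per the labels' protocols. The deposited values are the authors' FPKM for each Ensembl ID, per the file headers. The submitters' processing notes name HISAT2, HTSeq, Cufflinks and Trimmomatic, with GRCh38 (hg38) as the build. Tool versions, annotation release and the strand setting of the counting are not given in the sources used here, so reads of overlapping or antisense genes cannot be told apart with certainty (13 of the 31 genes overlap a listed gene on the opposite strand). The 31 genes and all lists were chosen with earlier results of these data known.

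A table of gene names gave symbols for 23330 IDs; positions, exon lengths and GC content came from GENCODE 29 (22807 matched). Whole reads were recovered by searching library totals and gene lengths that gave whole numbers in all 3 libraries (tolerance 1e-05 plus 3e-10 per read), for 23377 genes (99.99%). Together these reads come to 100.8% of the total in each library; the cause of the excess was not tested. For ACAT2, FDPS, SCD and STARD4 a smaller number of reads would also be whole; the one nearest the annotated length was used. Differences are in log2(FPKM + 1), which understates the change of low genes, for genes with a mean of at least 1 FPKM. Intervals are exact Clopper-Pearson 95% intervals, conditional on the sum of both counts. They take in counting error and nothing else, since copies from amplification count as separate reads. The regression was fitted to 9358 protein-coding genes on GC content, the log of the mean FPKM and the log of gene length, each up to its cube. No count model was fitted. The rules, the intervals and the regression were tested on simulated data.

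All 31 genes are named, and from each other list the 2 highest and 2 lowest genes in L597R against P-Enter with a mean of at least 5 FPKM, except for some genes that are not reported here. Alternatives were pseudocounts of 0.1 and 5, no filter or a mean of 5 FPKM, thresholds of 1.1 and 1.5, rescaling by the median ratio, totals without mitochondrially encoded genes, recovered reads, the regression, an interval beyond 1.1-fold and, added after the values were seen, the fewest reads and the shares over protein-coding genes. Computation used scipy 1.17.1, pandas 2.3.3 and numpy 2.4.6 under Python 3.11.15, with figures by matplotlib 3.10.9.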

Additional observations from a re-analysis of the deposited data

How the results depend on the processing

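With 1 library per group nothing here separates culture from treatment. No paired analysis was possible because each group has 1 library. No gene of the 31 passed 2-fold under any alternative run. By the 25% rule, for L597R against P-Enter (6, as 4 higher and 2 lower) there was 1 (1 higher, 0 lower) with a pseudocount of 5, 1 (0 higher, 1 lower) after the regression, 14 at a threshold of 1.1 and 0 at 1.5, and 1 was lower at a mean of at least 5 FPKM. For WT against P-Enter (1, lower) there were 2 (1 higher) with a pseudocount of 0.1 and with recovered reads, 0 with a pseudocount of 5 and 0 after the regression, and 8 and 0 at thresholds of 1.1 and 1.5. For L597R against WT (2, higher) there were 4 (1 lower) with a pseudocount of 0.1 and with recovered reads, 0 with a pseudocount of 5 and 0 after the regression, and 13 and 0 at thresholds of 1.1 and 1.5. Intervals beyond 1.1-fold were left for 8 of 19 genes (L597R against P-Enter), 1 of 9 (WT against P-Enter) and 5 of 17 (L597R against WT). The median difference ran from -0.07 to 0.0012 for L597R against P-Enter, from -0.01 to 0.01 for WT against P-Enter and from -0.07 to -0.03 for L597R against WT over the alternatives. Among genes with an interval leaving out 1, the regression reversed the sign of SCAP (0.0160), MVD (0.0130), DHCR7 (0.00658), ACLY (0.0586), ELOVL6 (-0.00405) and FADS1 (0.00687) in L597R against P-Enter, and of SREBF2 (0.0263) and MSMO1 (-0.0637) in L597R against WT. The cause of these shifts was not tested beyond the terms of the regression. With the fewest reads, STARD4 in WT against P-Enter (0.976 to 1.29) and SCD in L597R against WT (0.883 to 1.001) included 1, leaving 8 and 16 genes.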

Other observations

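Fatty acid oxidation, the breakdown route, had 7 of 8 listed genes with a mean of at least 1 FPKM. Of these, 0 were higher and 7 lower in L597R than in P-Enter, where 48.5% of all genes were higher. The median log2 difference was -0.11 before and -0.05 after the regression. ACADVL, which starts the oxidation of very long chains, was at 23.9 FPKM in L597R against 31.7 in P-Enter (read ratio 0.754, 0.708 to 0.803) and at -0.25 on the log2 scale after the regression. The carnitine carrier SLC25A20 was at 22.7 FPKM in L597R against 24.5 in P-Enter (0.924, 0.828 to 1.03). HADHA, of the mitochondrial trifunctional protein, was at 79.7 FPKM in L597R against 81.2 in P-Enter (0.982, 0.944 to 1.02). Its log2 difference was -0.03 before and 0.01 after the regression. Of the 7 genes, the interval lay below 1 for 2, where it did for 23.9% of all genes. In WT against P-Enter 1 was higher and 6 lower (49.7% of all genes were higher), with the interval below 1 for 1 (12.1% of all genes). ACADVL was at 28.5 FPKM in WT against 31.7 in P-Enter (0.898, 0.845 to 0.954). Both comparisons use the same P-Enter library.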
